A study of Mus musculus with 2 samples.

Results

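Hormones reach bone through G protein–coupled, cytokine, nuclear, and tyrosine kinase receptors. The genes described here were the receptors of parathyroid hormone (Pth1r), vitamin D (Vdr), growth hormone (Ghr), estrogen (Esr1), glucocorticoid (Nr3c1), thyroid hormone (Thra), and insulin (Insr). They were chosen by symbol from a list of receptors, and all 7 were found among the 32288 features of the gene list, each with a single row. The question was which stromal cell type of the periosteum held the transcripts of which receptor. Transcripts were measured, and no hormone was given, so the values are levels of receptor RNA and not responses.

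The data were 2 scRNA-Seq libraries, replicates 1 and 2 of a single condition, from the periosteum peeled from femurs and tibias. Both were labelled as WT mice of the strain C57BL6 at an age of 4 weeks, and cells negative for CD45, CD31, and Ter119 had been sorted, so neither a second condition nor an untreated control exists. The labels do not say whether the libraries came from separate mice, and p-values then measure only the spread between these libraries. After filtering, 9169 cells were kept, 6276 in library 1 and 2893 in library 2.

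PTH and the related peptide PTHrP act on a shared G protein–coupled receptor that raises cyclic AMP in osteoblasts and in growth plate chondrocytes, where PTHrP made near the end of the bone and Indian hedgehog made by maturing chondrocytes regulate each other. Vitamin D acts through a nuclear receptor that binds DNA with a retinoid X receptor. Growth hormone acts through JAK2 and STAT5 and induces Igf1, estrogen and glucocorticoid receptors are ligand-activated transcription factors, the thyroid hormone receptor α is the main thyroid receptor of the skeleton, and the insulin receptor shares its substrates with the IGF1 receptor.

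Clusters were named from marker genes as P-SSC–like (periosteal skeletal stem cell–like), osteoblast-like, chondrocyte-like, Lepr+ stromal–like, tenocyte-like, smooth muscle–like, and skeletal muscle–like, and the receptors were kept out of the genes used for clustering. The P-SSC list was Pdgfra, Ly6a, Cd34, Thy1, Clec3b, Pi16, Dpt, Mfap5, Dpp4, Cd248, Pdpn, and Col14a1. It lacks Prrx1, Lrp1, and Anpep (CD13), by which the paper described mouse Prx1+ P-SSCs. The paper also named a cluster of Lepr+ P-SSCs, which the name P-SSC–like is not meant to cover. Whether the Lepr+ stromal–like cells below match that cluster was not tested. The name P-SSC–like stands for the listed markers only, and no stem cell function was measured. Of the 2 P-SSC–like clusters, the one led by Mfap4 and Eln passed for 10 of 12 markers, with 0 among its 10 leading genes. P-SSC–like cells numbered 19 in library 1 and 291 in library 2, osteoblast-like cells 88 and 168, and chondrocyte-like cells 27 and 120. Lepr+ stromal–like cells, which carry Lepr and Adipoq as in the bone marrow, numbered 63 and 9, and tenocyte-like cells 3 and 171. Of the tenocyte-like cells of library 2, 75 lay in a cluster led by Msmp and Cytl1. It passed for only 3 of 7 tenocyte markers, with 1 among its 10 leading genes. All 12 P-SSC markers, all 11 Lepr+ markers, and all 10 chondrocyte markers had UMIs in the class that bears their name in both libraries, and of the 8 osteoblast markers 1 was at 0 in the osteoblast-like cells of library 2. The same lists gave the classes their names, so these counts are no separate support for the names. The cluster led by Mmp9 and Hist1h2ap passed for 3 of 8 osteogenic progenitor markers but stayed unnamed, since none of these and 1 osteoclast marker were among its 10 leading genes. The cluster led by Col10a1 and Mgp matched the erythroid list best, with 4 of 11 markers. It stayed unnamed, since none of these and 1 hypertrophic chondrocyte marker were among its 10 leading genes. Unnamed clusters held 170 cells of library 1 and 282 of library 2 and are given by their leading genes.

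The 2 libraries were not alike in other ways. Despite the sort, 92.9% of kept cells of library 1 and 61.2% of library 2 lay in hematopoietic clusters. The reporter EGFP had 0 UMIs in library 1 and 6837 in library 2, and tdTomato had 1482 and 4627, although both libraries were labelled WT. Xist and the Y-linked Ddx3y were both detected in each library (40657 and 1864 UMIs in library 1, 5934 and 912 in library 2). The summed level of the 11 erythroid markers in stromal classes was 21960 CPM in Lepr+ stromal–like cells of library 1 and 366 CPM in those of library 2, and between 99.98 and 3951 CPM in the P-SSC–like, osteoblast-like, and chondrocyte-like cells. None of the 11 was at 0 in Lepr+ stromal–like cells of library 1 and 7 were in library 2. Its part in the results was not tested. The libraries shared 7 cell barcodes among kept cells. Because the libraries differ in these ways, each receptor is given in each library. Levels are in CPM, the UMIs of a receptor per 1000000 UMIs that a library gave in a class, and brackets give 95% Poisson intervals, which cover counting error only.

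Pth1r, the receptor of PTH and PTHrP, had its highest level in chondrocyte-like cells, at 2327 CPM (2229–2429) in library 1 and 1104 CPM (1070–1139) in library 2. Osteoblast-like cells followed at 548 CPM (519–578) and 550.2 CPM (524–578), and Lepr+ stromal–like cells at 239 CPM (197–288) and 104.5 CPM (28.5–268). P-SSC–like cells held 24.4 CPM (6 UMIs) and 34.3 CPM (94 UMIs). The order was the same in both libraries, and the intervals of P-SSC–like, osteoblast-like, and chondrocyte-like cells did not overlap, whereas in library 2 that of the 9 Lepr+ stromal–like cells overlapped that of P-SSC–like cells. The ratio of chondrocyte-like to osteoblast-like CPM was 4.25 (3.96–4.55) in library 1 and 2.01 (1.89–2.13) in library 2.

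Vdr, the nuclear vitamin D receptor, was instead highest in osteoblast-like cells, at 58.3 CPM (49.2–68.7) in library 1 and 32.5 CPM (26.3–39.7) in library 2. Chondrocyte-like cells held 18.7 CPM (10.9–29.9) and 8.84 CPM (6.04–12.5), and Lepr+ stromal–like cells 23.5 CPM (11 UMIs) and 26.1 CPM (1 UMI). P-SSC–like cells were nearly without it, with 1 UMI among 19 cells and 3 UMIs among 291. The ratio of osteoblast-like to P-SSC–like CPM was 14.3 (2.53–569) in library 1 and 29.7 (9.86–146.5) in library 2. Skeletal muscle–like and smooth muscle–like cells held 0 UMIs of Vdr in both libraries.

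Ghr, the growth hormone receptor, had its highest level in Lepr+ stromal–like cells, at 346 CPM (294.5–403) in library 1 and 261 CPM (125–481) in library 2. P-SSC–like cells held 48.9 CPM (25.3–85.4) and 69.7 CPM (60.1–80.3), and skeletal muscle–like cells 49.1 CPM (23.5–90.3) and 56.8 CPM (31.8–93.6). Osteoblast-like cells held 19.8 CPM and 10.8 CPM, and chondrocyte-like cells 13.2 CPM and 8.28 CPM. Lepr+ stromal–like cells thus exceeded P-SSC–like cells 7.07 times (3.94–14.0) in library 1 and 3.75 times (1.77–7.05) in library 2, and P-SSC–like and skeletal muscle–like cells could not be told apart by their intervals. Tenocyte-like cells had 0 UMIs of Ghr in library 1 (3 cells) and 73 in library 2. In library 2 they exceeded osteoblast-like cells 4.16 times (2.71–6.52) and chondrocyte-like cells 5.44 times (3.51–8.62).

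Esr1, which encodes estrogen receptor α, was also highest in Lepr+ stromal–like cells, at 89.6 CPM (64.6–121) and 78.4 CPM (3 UMIs, 16.2–229). P-SSC–like cells held 20.4 CPM (6.62–47.5) and 25.2 CPM (19.6–31.9), and osteoblast-like cells 5.27 CPM (2.80–9.01) and 4.74 CPM (2.59–7.95). In chondrocyte-like cells, library 1 had 0 UMIs, where 3 UMIs would be 3.30 CPM, and library 2 had 2.49 CPM (9 UMIs). The Lepr+ stromal–like to osteoblast-like ratio was 17.0 (8.96–34.6) in library 1 and 16.6 (3.05–59.3) in library 2.

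Nr3c1, the glucocorticoid receptor, was present in every named class. Its levels were 179 CPM (130–241) and 123 CPM (110–136) in P-SSC–like cells, 113 CPM (84.7–148) and 104.5 CPM (28.5–268) in Lepr+ stromal–like cells, and 54.99 CPM (40.8–72.5) and 59.4 CPM (51.7–67.9) in chondrocyte-like cells. Osteoblast-like cells had the lowest level of these, at 34.4 CPM (27.5–42.6) and 28.8 CPM (23.0–35.6). The intervals of P-SSC–like and Lepr+ stromal–like cells overlapped in both libraries.

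Thra, the thyroid hormone receptor α, had 194 CPM (156–238) and 157 CPM (57.5–341) in Lepr+ stromal–like cells and 134.5 CPM (92.6–189) and 106 CPM (94.0–119) in P-SSC–like cells. Chondrocyte-like cells held 78.1 CPM (61.0–98.5) and 34.0 CPM (28.2–40.5), and osteoblast-like cells 37.7 CPM (30.4–46.1) and 22.3 CPM (17.3–28.4). The leading pair overlapped in both libraries, and the same order of classes held in each. Insr, the insulin receptor, was low throughout, between 4.42 and 14.2 CPM in P-SSC–like, osteoblast-like, and chondrocyte-like cells, with 32.0 CPM (17.9–52.8) and 52.3 CPM (2 UMIs) in Lepr+ stromal–like cells.

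**Figure D1:**
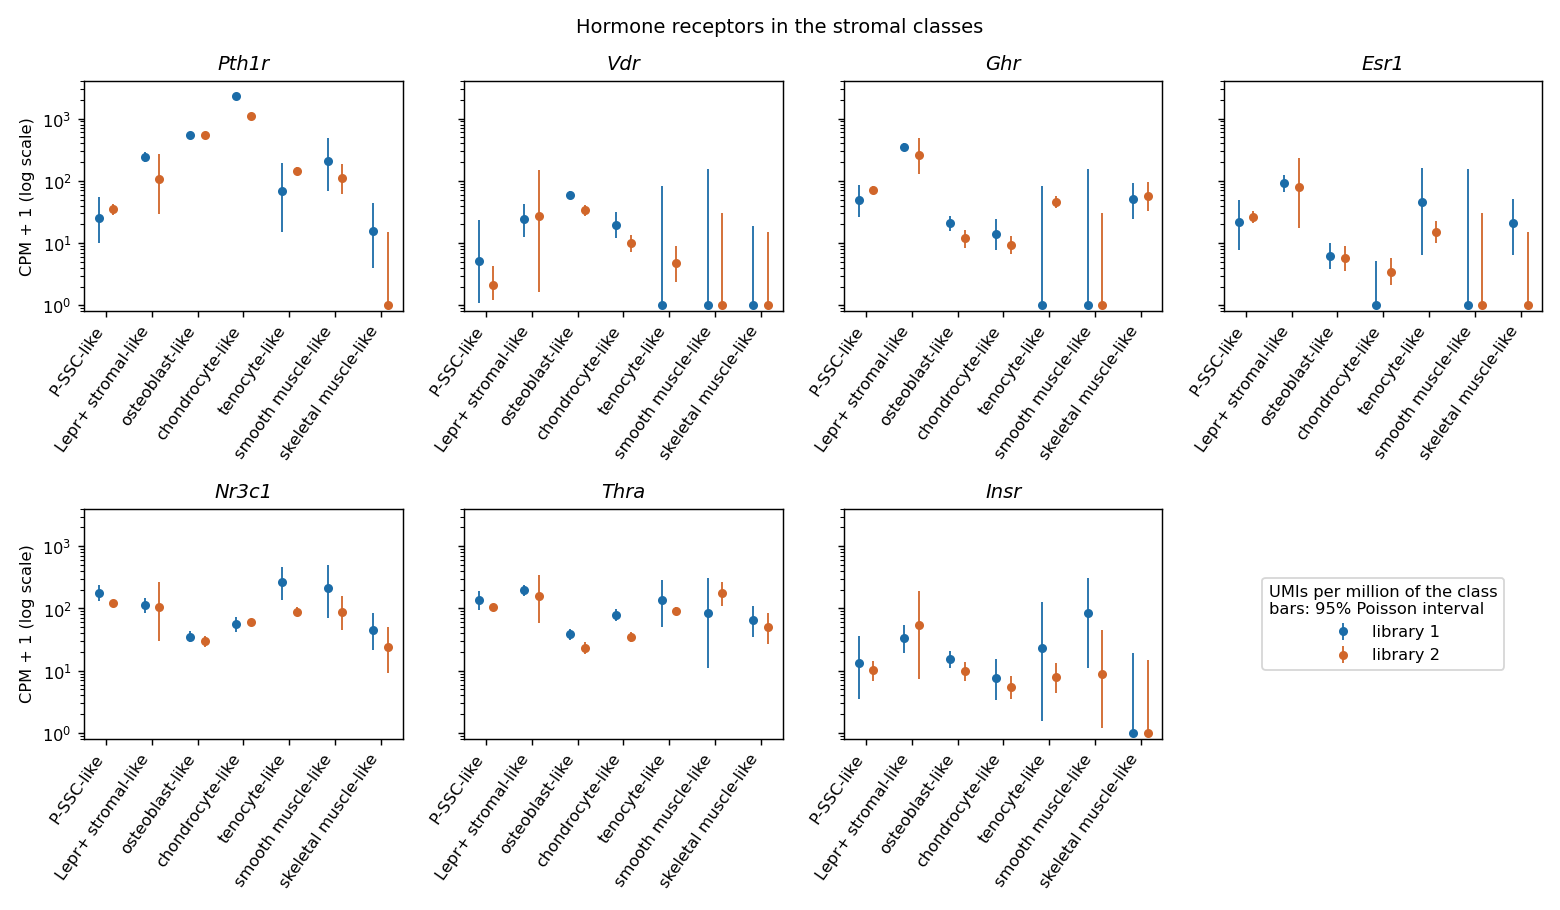
Level of each receptor in 7 stromal classes, as CPM + 1 on a log axis, with a point for each library and bars for 95% Poisson intervals. Pth1r peaked in chondrocyte-like cells (2327 and 1104 CPM), Vdr in osteoblast-like cells (58.3 and 32.5 CPM), and Ghr and Esr1 in Lepr+ stromal–like cells.

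Next, differences among P-SSC–like, osteoblast-like, and chondrocyte-like cells were tested by the quasi-likelihood test of edgeR on UMIs summed per library and class (n = 2 libraries). Only these classes and skeletal muscle–like cells had at least 10 cells in each library. Of 10567 genes tested, 3162 (29.9%) differed among the 3 classes at an adjusted p under 0.05, and 5 of the 7 receptors did. The adjusted p was 0.00014 for Pth1r, 0.00036 for Vdr, 0.0071 for Ghr, 0.0093 for Nr3c1, and 0.023 for Esr1. Thra and Insr did not pass (adjusted p = 0.063 and 0.185). A model with a replicate block for the library called Thra as well (adjusted p = 0.010), among 4068 genes. With at most 5% mitochondrial UMIs, Esr1 did not pass (adjusted p = 0.052).

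P-SSC–like cells had less Pth1r and Vdr, and more Esr1, Ghr, and Nr3c1, than the mean of the bone- and cartilage-forming classes. Fold changes are relative to all genes by TMM normalization, so they differ by the normalization factors from ratios of CPM. In this comparison, where 24.1% of all genes passed, 5 of 7 receptors passed. Pth1r fell by 5.38 ± 0.65 (log2 ± SE, adjusted p = 0.00012) and Vdr fell by 4.35 ± 0.69 (0.00077). Esr1 was higher by 2.53 ± 0.64 (0.013), Ghr by 1.86 ± 0.37 (0.0037), and Nr3c1 by 1.31 ± 0.29 (0.0068). Thra was at 1.08 ± 0.36 (0.051), and at 1.196 with an adjusted p of 0.0080 with the replicate block, where 3302 of 10567 genes passed. The receptors that passed lay in the same direction in both libraries, except that Esr1 had no ratio in library 1, where chondrocyte-like cells had 0 UMIs.

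Osteoblast-like cells stood out for Vdr, by 3.62 ± 0.47 on the log2 scale against the mean of the other classes (adjusted p = 0.00039), in a comparison where 13.9% of genes passed. Pth1r was higher by 1.55 ± 0.46 (0.045) and Nr3c1 lower by 1.22 ± 0.31 (log2 fold change −1.22, adjusted p = 0.024), so 3 of 7 receptors passed. With the replicate block, where 1954 of 10567 genes passed, Thra passed too (−1.14 ± 0.29, adjusted p = 0.021, against 0.088 without it), 4 of 7. The Nr3c1 call missed the threshold at resolution 0.4 (0.051) and with skeletal muscle–like cells in the mean (0.066). The Pth1r call did not hold with at most 5% mitochondrial UMIs (adjusted p = 0.096) or at a clustering resolution of 0.4 (0.162). Chondrocyte-like cells exceeded the others in Pth1r by 3.83 ± 0.47 (0.00022), where 18.3% of genes passed, and Ghr was lower (log2 fold change −1.45 ± 0.42, adjusted p = 0.035), so 2 of 7 receptors passed. Esr1 joined them with the replicate block, where 2563 of 10567 genes passed (−2.40 ± 0.74, adjusted p = 0.038, against 0.053 without it), 3 of 7. Chondrocyte-like cells of library 1 had 0 UMIs of Esr1, so the size of this fold rests partly on a zero. The Ghr call was lost with at most 5% mitochondrial UMIs (0.052), at resolution 0.4 (0.131), and without integration (0.064).

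**Figure D2:**
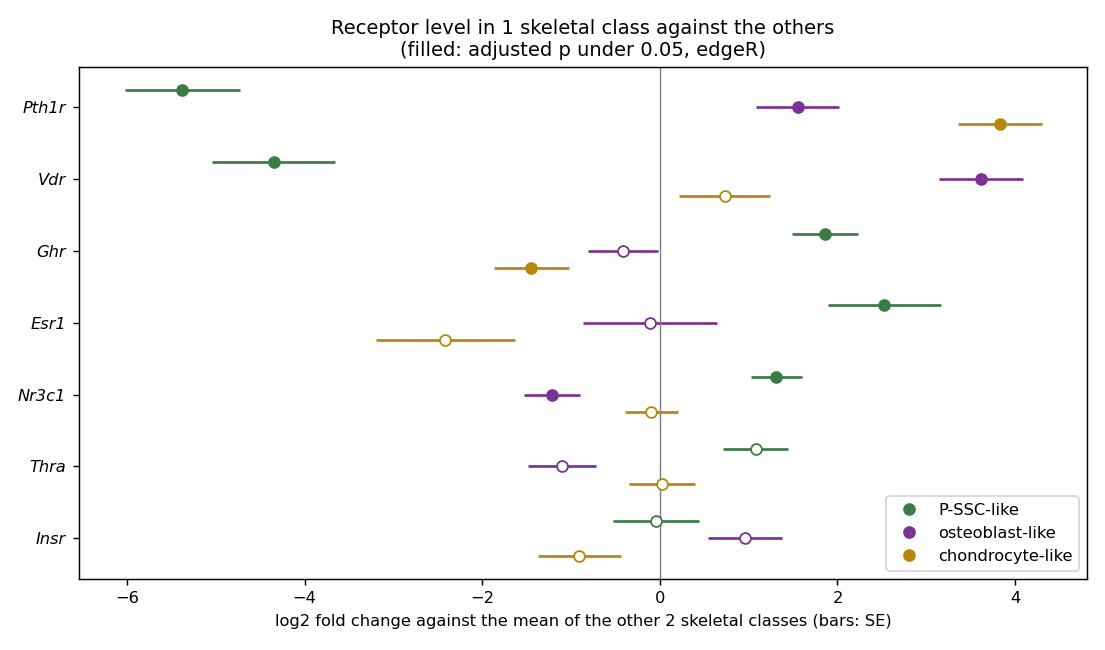
Log2 fold change of each receptor in P-SSC–like, osteoblast-like, and chondrocyte-like cells against the mean of the other 2 classes, with bars for SE and filled points for an adjusted p under 0.05. P-SSC–like cells lay at −5.38 for Pth1r and −4.35 for Vdr and above 0 for Esr1, Ghr, Nr3c1, and Thra.

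Pairs of classes were compared to see which neighbors in the order of levels differed. Between P-SSC–like and osteoblast-like cells, 20.4% of genes passed and 5 of 7 receptors did. Vdr differed by −5.31 ± 0.71 and Pth1r by −4.62 ± 0.65, while Nr3c1 (1.68 ± 0.35), Ghr (1.52 ± 0.44), and Thra (1.45 ± 0.43) were higher in P-SSC–like cells, with adjusted p between 0.00035 and 0.035. Esr1 did not pass there (1.76 ± 0.72, adjusted p = 0.118). The Thra difference missed the threshold at resolution 0.4 (0.070) and with at most 5% mitochondrial UMIs (0.059), and the Ghr difference missed it at resolution 0.4 (0.075) and without integration (0.118).

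Between P-SSC–like and chondrocyte-like cells, 24.6% of genes and 4 of 7 receptors passed. Pth1r differed by −6.14 ± 0.69 and Vdr by −3.39 ± 0.74, and Esr1 (3.30 ± 0.84) and Ghr (2.21 ± 0.47) were higher in P-SSC–like cells. For Esr1, library 1 had 5 UMIs in P-SSC–like and 0 in chondrocyte-like cells, so the size of its fold rests partly on a zero. Nr3c1 was at 0.94 ± 0.35 (adjusted p = 0.071) and passed with the replicate block (0.031), where 3409 of 10567 genes passed. Between osteoblast-like and chondrocyte-like cells, 13.5% of genes passed and 1 of the 7 receptors did, Vdr (1.92 ± 0.50, adjusted p = 0.023). That call was lost with DESeq2 (0.069), at resolution 0.4 (0.056), and with at most 5% mitochondrial UMIs (0.057). Pth1r was at −1.52 ± 0.55 (adjusted p = 0.100), and it passed with the replicate block (0.048), where 2 receptors and 1844 of 10567 genes passed.

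At the main resolution, Lepr+ stromal–like cells entered a model when classes with at least 5 cells per library were allowed, a setting added after the data had been seen, and library 2 then gave 9 cells with 38269 UMIs. With 4 classes, 31.3% of 9325 genes differed and the same number of receptors passed, 5 of 7. Against the mean of the other classes, where 12.9% of genes passed, Ghr (3.13 ± 0.36, adjusted p = 0.00012) and Esr1 (3.12 ± 0.64, 0.0067) were higher, 2 of 7. Compared with P-SSC–like cells directly, where 7.26% of genes passed, Ghr was higher in Lepr+ stromal–like cells by 1.93 (P-SSC–like minus Lepr+ stromal–like, −1.93 ± 0.48, adjusted p = 0.031), and Esr1 did not pass (−1.46 ± 0.80, 0.364). Compared with osteoblast-like cells, where 14% of genes passed, Lepr+ stromal–like cells were higher in Ghr (3.42 ± 0.50), Esr1 (3.18 ± 0.83), and Thra (1.67 ± 0.48) and lower in Pth1r (−2.44 ± 0.68), with adjusted p between 0.0011 and 0.039. Vdr was lower in P-SSC–like cells (P-SSC–like minus Lepr+ stromal–like, −3.48 ± 0.81, 0.021). This call rests on few UMIs, 1 in P-SSC–like against 11 in Lepr+ stromal–like cells of library 1 and 3 against 1 in library 2. The interval of the CPM ratio included 1 in each library (0.0040–1.19 and 0.0034–2.20). Relative to chondrocyte-like cells, where 21.1% of genes passed, 4 of 7 receptors passed. Ghr (4.05 ± 0.53, adjusted p = 0.00039), Esr1 (4.72 ± 0.94, 0.0039), and Insr (1.95 ± 0.61, 0.041) were higher in Lepr+ stromal–like cells. Pth1r was lower in them (−4.00 ± 0.72, 0.0022). The size of the Esr1 fold rests partly on 0 UMIs in chondrocyte-like cells of library 1. Insr had 2 UMIs in Lepr+ stromal–like cells of library 2. It did not pass against P-SSC–like or osteoblast-like cells (0.218 and 0.441). In this model, the Ghr and Esr1 calls of P-SSC–like cells were lost (0.56 and 1.17, adjusted p = 0.409 and 0.278).

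At a resolution of 0.4, also added for this class after the data had been seen, Lepr+ stromal–like cells numbered 83 and 40. At the main resolution they numbered 63 and 9, so the class at 0.4 held cells that lay outside it before. What these cells are was not tested, and the comparisons at 0.4 are not of the same cells. Several of the calls above were lost. Against osteoblast-like cells, where 8.53% of genes passed, 1 receptor passed in place of 4, Ghr (3.04 ± 0.57, adjusted p = 0.011). Esr1 (0.051), Thra (0.099), and Pth1r (0.187) did not pass, nor did Ghr against P-SSC–like cells (−1.40 ± 0.54, 0.184) or, where 22.7% of genes passed, Insr against chondrocyte-like cells (0.059). In that last comparison, 4 of 7 receptors passed. Ghr (3.47 ± 0.59, 0.0027), Esr1 (4.53 ± 0.96, 0.0069), and Vdr (1.70 ± 0.53, 0.040) were higher in Lepr+ stromal–like cells, and Pth1r was lower (−3.22 ± 0.68, 0.0072). Ghr (2.63 ± 0.40, 0.0020) and Esr1 (2.90 ± 0.62, 0.012) remained higher than the mean of the other classes, where 11.6% of genes passed, and Vdr passed as well (2.13 ± 0.42, 0.0081), 3 of 7. Between P-SSC–like and Lepr+ stromal–like cells, where 7.08% of genes passed, Vdr (−4.72 ± 0.68, 0.0032) and Pth1r (−3.02 ± 0.70, 0.025) passed.

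Levels in clusters added detail within the classes. Of the P-SSC–like clusters, the one led by Pi16 and Mfap5 (15 and 167 cells) held 45.2 and 46.1 CPM of Ghr, and the one led by Mfap4 and Eln (4 and 124 cells) held 64.7 and 112 CPM. The ratio was 2.42 (1.80–3.27) in library 2 and 1.43 (0.249–5.73) in library 1, where the second cluster had 3 UMIs. Nr3c1 (112 and 142 CPM in library 2) and Esr1 (28.5 and 19.3 CPM) lay closer together. The osteoblast-like clusters led by Ifitm5 and Bglap3 and by Gal and Bglap held similar Pth1r, 572 and 503 CPM in library 1 and 591 and 478 CPM in library 2.

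Among unnamed clusters, the one led by Mmp9 and the histone gene Hist1h2ap (59 and 99 cells) held Vdr at 81.2 CPM (59.5–108) and 37.0 CPM (26.3–50.6), at 1.26 (0.870–1.80) and 1.06 (0.695–1.60) times the Ifitm5-led osteoblast-like cluster. Its Pth1r level was 254 and 421 CPM, and its Esr1 level 31.8 and 8.55 CPM. The cluster led by Col10a1, the collagen of hypertrophic cartilage, was not named as hypertrophic chondrocytes and matched erythroid markers best. Its median was 6238.5 UMIs per cell, against 30950 in the chondrocyte-like cluster. It held 0 UMIs of Vdr in 68 and 74 cells, where 3 UMIs would be 5.90 and 5.29 CPM. The Vdr level of osteoblast-like cells was 9.89 and 6.14 times that floor, and that of chondrocyte-like cells 3.17 and 1.67 times. These ratios leave out counting error and are not lower bounds.

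In the Col10a1-led cluster, Nr3c1 was also low, at 9.83 CPM (5 UMIs) and 5.29 CPM (3 UMIs), so that chondrocyte-like cells had 5.595 times (2.24–18.0) and 11.2 times (3.79–54.8) its level. Ghr, in contrast, was 2.38 times (1.06–5.52) and 4.90 times (2.72–8.72) that of the chondrocyte-like cluster, at 31.5 and 40.6 CPM. Pth1r was 90.4 CPM in library 1 and 342 CPM in library 2. Of the tenocyte-like clusters, seen mainly in library 2, the one led by Msmp and Cytl1 (75 cells, all in library 2) had 5.30 times (3.76–7.65) the Pth1r of the one led by Tnmd and Kera. The Msmp-led cluster passed for 3 of 7 tenocyte markers and the Tnmd-led cluster for 7 of 7. The ratio may therefore not be one within a single cell type.

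**Figure D3:**
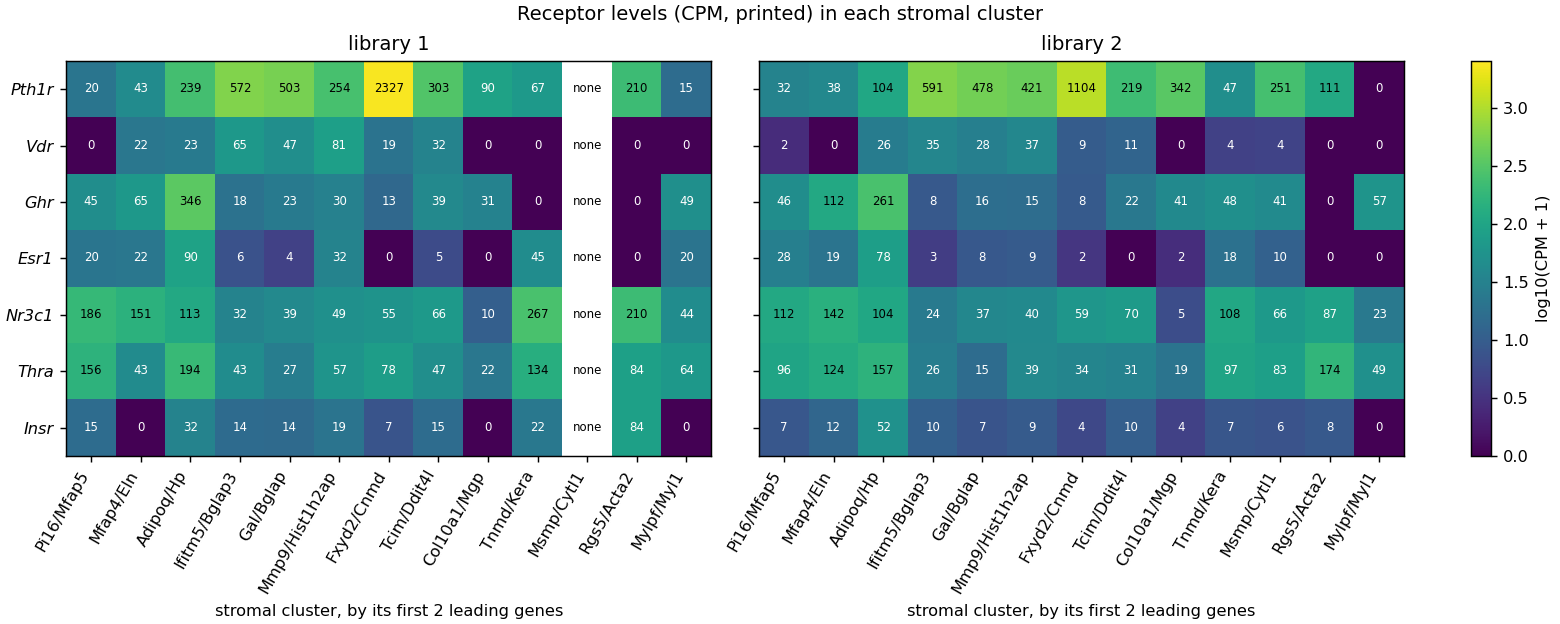
CPM of the receptors in 13 of the 14 stromal clusters (the unnamed cluster with B cell genes is left out), named by their first 2 leading genes, with a panel for each library and color for log10(CPM + 1). The Col10a1/Mgp column held 0 CPM of Vdr in both libraries, and the Adipoq/Hp column (the Lepr+ stromal–like cells) held the highest Ghr, 346 and 261 CPM.

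Pth1r was then compared with Ihh, the hedgehog ligand of maturing chondrocytes, since the libraries differed in both. Ihh was at 263 CPM in chondrocyte-like cells of library 1 and 117 CPM in those of library 2, beside Pth1r at 2327 and 1104 CPM. Chondrocyte-like cells with an Ihh UMI held 3349 CPM of Pth1r (3186–3518, 13 cells) in library 1 and 1908 CPM (1838–1980, 46 cells) in library 2. Those without held 1224 CPM (1122–1332, 14 cells) and 552 CPM (521–584, 74 cells). Cells with an Ihh UMI were deeper, with medians of 37379 against 32186.5 UMIs in library 1 and 31397.5 against 28471 in library 2. Ihh had 0 UMIs in P-SSC–like and Lepr+ stromal–like cells of both libraries and 2 UMIs in osteoblast-like cells of each. In the Col10a1-led cluster, the values were 550.4 CPM (2 cells) and 68.0 CPM in library 1 and 882 CPM (14 cells) and 109 CPM in library 2. In the Tcim-led cluster they were 376 and 265 CPM in library 1 and 219 and 219 CPM in library 2. Depth differed more in these clusters, with medians of 11809.5 against 6212.5 and 8159 against 5675 UMIs in the Col10a1-led cluster and 20670 against 6643.5 and 25324 against 5498.5 UMIs in the Tcim-led cluster. This split was chosen after the levels had been seen and carries no test.

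**Figure D4:**
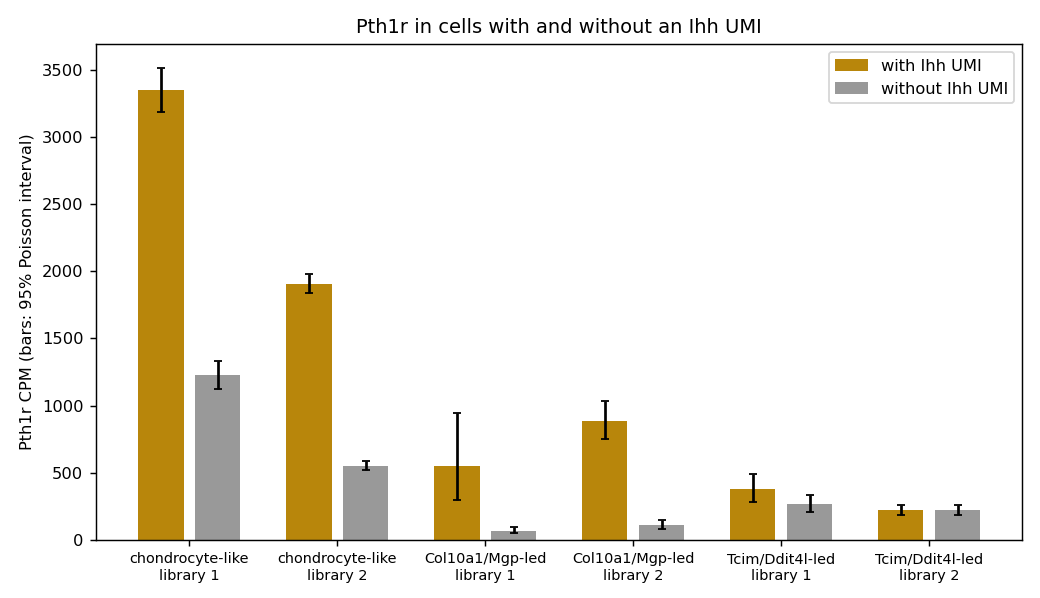
Pth1r CPM in cells with and without an Ihh UMI, in chondrocyte-like cells and the Col10a1-led and Tcim-led clusters, with 95% Poisson intervals. Chondrocyte-like cells with Ihh reached 3349 and 1908 CPM and those without 1224 and 552 CPM.

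Hematopoietic cells in the same libraries gave the level outside the stroma. The mean of the 3 skeletal classes was compared with that of B cell–like, T/NK cell–like, neutrophil-like, monocyte/macrophage-like, and erythroid-like cells, and 63.4% of 13400 genes passed, as did 5 of 7 receptors. Pth1r held between 0 and 2.15 CPM in these hematopoietic classes, with 0 UMIs in neutrophil-like cells of library 2 and some in every other class and library, and its skeletal level was higher by 8.30 ± 0.34 (log2, adjusted p = 7.65e-13). Ghr had 0 UMIs in T/NK cell–like and neutrophil-like cells of both libraries and at most 2.27 CPM in the others, and it passed too (4.84e-09); its fitted fold change rests on these zeros and is not given. Thra was higher in skeletal classes by 2.08 ± 0.24 (1.74e-06), Vdr by 3.73 ± 0.60 (2.26e-05), and Esr1 by 1.42 ± 0.45 (0.011). The Vdr and Esr1 results are for the mean and not for each class. Vdr was at 4.08 and 1.09 CPM in P-SSC–like cells (1 and 3 UMIs). Esr1 was at 20.4 and 25.2 CPM in P-SSC–like cells. It was at 5.27 and 4.74 CPM in osteoblast-like and 0 and 2.49 CPM in chondrocyte-like cells. By the thinned shares given below, osteoblast-like cells lay below B cell–like cells for Esr1.

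Nr3c1 and Insr did not differ beyond the spread, at 0.13 ± 0.19 (adjusted p = 0.596) and −0.41 ± 0.28 (0.221). Nr3c1 was at 69.4 and 54.5 CPM in B cell–like cells and 86.7 and 57.9 CPM in monocyte/macrophage-like cells, and Insr at 19.1 and 11.8 CPM in B cell–like cells. Vdr, at 2.495 and 5.67 CPM, was detected in monocyte/macrophage-like cells, beside 4.08 and 1.09 CPM in P-SSC–like cells. The scale moved these values: the median of all genes was −0.17 with TMM normalization, with 3826 genes higher and 4668 lower in the skeletal classes, and 0.11 with RLE size factors, with 4477 higher and 3633 lower. All 5 calls and their directions were the same with both.

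**Figure D5:**
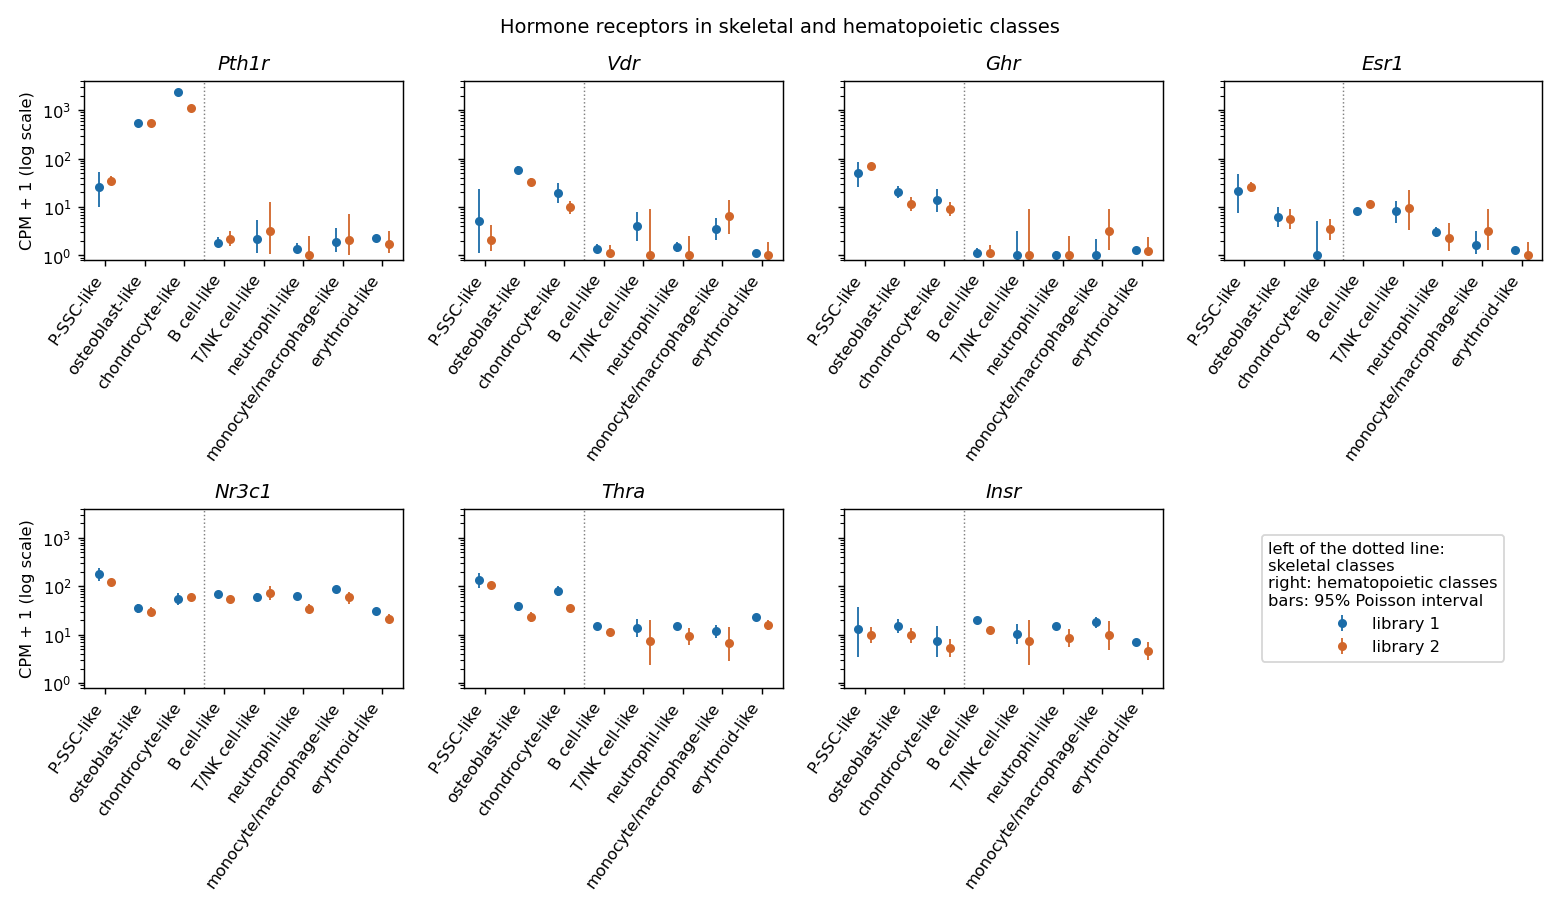
Level of each receptor as CPM + 1 on a log axis in 3 skeletal and 5 hematopoietic classes, with a point for each library and 95% Poisson intervals. Pth1r and Ghr were at most 2.27 CPM in every hematopoietic class shown. The means of Nr3c1 and Insr did not differ between skeletal and hematopoietic classes beyond the spread, although single classes differed in level.

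As shares of cells, Pth1r UMIs were found in all 27 chondrocyte-like cells of library 1 and 99.2% of those of library 2, 98.9% and 97.0% of osteoblast-like cells, and 31.6% and 25.1% of P-SSC–like cells. The background was 0.632% and 0.523% of B cell–like cells, which should lack it. For Vdr, the shares of osteoblast-like cells were 71.6% (61.0–80.7, exact binomial) and 36.9% (29.6–44.7). Those of P-SSC–like cells were 5.26% (1 of 19) and 1.03% (0.213–2.98), against 0.260% and 0.0747% of B cell–like cells. Depth differed, with a median of 29216 and 17093.5 UMIs in osteoblast-like cells, 12361 and 9202 in the P-SSC–like class, and 3855 and 4004 in the B cell–like class. Thinned to 1000 UMIs per cell, 6.58% and 3.99% of osteoblast-like cells were expected to hold Vdr, against 0.468% and 0.0950% of P-SSC–like cells.

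Ghr was detected in 79.4% and 77.8% of Lepr+ stromal–like cells and, thinned to 1000 UMIs, in 29.3% and 36.8% of them, compared with 4.82% and 7.08% of P-SSC–like cells, 2.36% and 1.37% of osteoblast-like cells, and 0.0228% and 0.00550% of B cell–like cells. For Nr3c1 the thinned shares were 17.0% and 11.8% in P-SSC–like, 3.23% and 2.72% in osteoblast-like, and 6.88% and 5.75% in B cell–like cells. Insr thinned to 1.21% and 1.02% in P-SSC–like and 0.716% and 0.676% in chondrocyte-like cells. Esr1 thinned to 0.625% and 0.442% in osteoblast-like cells, below the 0.942% and 1.51% of B cell–like cells, so the osteoblast-like share was not above that level. The thinned shares of the classes given here were in the order of their CPM.

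Finally, lists of genes of each hormone pathway were counted in the test among the 3 skeletal classes, where 29.9% of all genes passed. An adjusted p beside a list gene is from this test and not from a pair of classes. Of the PTH axis, 6 of 14 genes tested passed (19 in the list), and 5 with DESeq2. Pde4b, which degrades cyclic AMP, was at 75.9 and 119 CPM in chondrocyte-like cells and 1.62 and 0.338 CPM in osteoblast-like cells (adjusted p = 0.00011). Pthlh, the ligand PTHrP, was highest of the 3 classes in P-SSC–like cells (20.4 and 82.8 CPM, adjusted p = 0.0014). Mmp13, a collagenase, was higher in osteoblast-like cells (59.6 and 91.0 CPM) than in the other 2 classes tested (0.0014) but higher still in Lepr+ stromal–like cells (1099 and 2090 CPM), and Arrb1, which encodes β-arrestin 1, was highest of the 3 classes in P-SSC–like cells (40.8 and 17.2 CPM, 0.0024).

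Of the vitamin D axis, 0 of 6 genes tested passed with edgeR (11 in the list) and 0 with DESeq2, and 1 had an unadjusted p under 0.05 with edgeR. Rxra, a partner of Vdr, was at 10.9 and 5.75 CPM in osteoblast-like cells and 36.7 and 22.6 CPM in P-SSC–like cells (adjusted p = 0.252), and Cyp24a1, which inactivates vitamin D and is a known target of Vdr, had 0 UMIs in the 3 skeletal classes and in Lepr+ stromal–like cells of both libraries. Of the growth hormone axis, 4 of 9 passed (12 in the list), and 2 with DESeq2. Igf1 was at 408 and 922 CPM in P-SSC–like cells and 753 and 601 CPM in Lepr+ stromal–like cells, and at most 10.5 CPM in osteoblast-like and chondrocyte-like cells (0.00020). Socs3, a feedback inhibitor of cytokine receptors, was at 634 and 176 CPM in osteoblast-like cells (0.0058). It was at 524 and 407 CPM in chondrocyte-like and 102 and 114 CPM in P-SSC–like cells. Stat5b was at 28.5 and 21.5 CPM in P-SSC–like and 6.48 and 3.38 CPM in osteoblast-like cells (0.042), and Jak2, the kinase of Ghr, at 40.1 and 36.9 CPM in osteoblast-like and 20.4 and 20.8 CPM in P-SSC–like cells (0.044).

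Of the steroid axis, 7 of 13 genes passed (19 in the list), and 5 with DESeq2. Tsc22d3, a glucocorticoid-induced gene, was at 110.0 and 115 CPM in P-SSC–like, 22.3 and 36.9 CPM in osteoblast-like, and 136 and 202 CPM in chondrocyte-like cells (adjusted p = 0.0029). Hsd11b2 (0.0072) and Zbtb16 (0.0077) were at most 16.3 CPM in these classes.

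Of the thyroid axis, 5 of 9 genes passed (14 in the list), and 5 with DESeq2. Hr, a thyroid hormone–induced corepressor, was at 40.8 and 37.2 CPM in P-SSC–like and 3.24 and 2.37 CPM in osteoblast-like cells (adjusted p = 0.00065). Slc7a8 (0.0034) had 0 UMIs in chondrocyte-like cells. Dio2, the activating deiodinase, had 0 UMIs in P-SSC–like cells of library 1 and 60 in library 2 and 0 in osteoblast-like cells of both (0.0099). In chondrocyte-like cells it was at 6.60 and 6.90 CPM.

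Of the insulin axis, 4 of 15 genes passed (16 in the list), 3 with DESeq2, led by Grb14, an adaptor that inhibits the insulin receptor, at 232 and 155 CPM in chondrocyte-like cells and 21.9 and 29.4 CPM in osteoblast-like cells (adjusted p = 4.78e-05), and by Slc2a1, a glucose transporter, at 99.0 and 91.1 CPM and 1.62 and 5.08 CPM (6.97e-05). Grb10 (0.027) and Foxo1 (0.048) were the others. Of the other hormone and retinoid receptors, 4 of 14 passed (25 in the list), and 3 with DESeq2. Calcrl, a receptor of the calcitonin family (93.7 and 39.4 CPM), Npr1, a natriuretic peptide receptor (40.8 and 22.3 CPM), Ptger4, a prostaglandin receptor (12.2 and 8.39 CPM), and Rarb, a retinoic acid receptor (16.3 and 4.38 CPM), were each highest of the 3 classes in P-SSC–like cells, with adjusted p between 0.00013 and 0.015.

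The genes most like each receptor over the 8 class sums of the model were found by Pearson correlation of log2(CPM + 10) among 7608 genes, as a description, since sums of a library share their depth and a few classes set the value. For Pth1r they were Nudcd2, Sdc3, and Adpgk (r = 0.993, 0.986, and 0.986), and for Vdr Cybrd1, Unc5b, and Prex1 (0.987, 0.975, and 0.967). Cybrd1, which encodes a ferric reductase, was at 42.9 and 35.2 CPM in osteoblast-like cells and 4.08 and 0.730 CPM in P-SSC–like cells. Ghr was followed by Dtnbp1, Ak3, and Emc9 (0.960, 0.954, and 0.953), Esr1 by Grina, Hivep1, and Armc8 (0.953, 0.948, and 0.946), and Nr3c1 by Arhgap29, Lrrk1, and Phactr2 (0.990, 0.986, and 0.983). Thra was followed by Nfix, Plin2, and Cpne2 (0.9505, 0.928, and 0.926) and Insr by Alg10b, Ikbkb, and Sh3bgrl (0.991, 0.990, and 0.987).

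By GENCODE M21 on mm10, all 7 receptors are protein-coding genes. Pth1r lies on chromosome 9 (110722085 to 110747145, minus strand), Vdr (97854425 to 97910630) and Ghr (3317760 to 3583492) on the minus strand of chromosome 15, and Esr1 on chromosome 10 (4611593 to 5005614, plus strand). Nr3c1 lies on chromosome 18 (39410545 to 39519421, minus strand), Thra on chromosome 11 (98740638 to 98769006, plus strand), and Insr on chromosome 8 (3122061 to 3279617, minus strand). Thra overlaps Nr1d1 over 1075 bases, Pth1r overlaps the muscle gene Myl3 over 5285 bases, and Insr overlaps Vmn2r-ps88 over 871 and Gm16180 over 938 bases, all of them on the other strand. Nr1d1 was at 76.2 CPM in chondrocyte-like cells of library 2 and 4.40 CPM in those of library 1, in which Thra was at 34.0 and 78.1 CPM. Pth1r was at 14.7 and 0 CPM in skeletal muscle–like cells.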

How the data were processed

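The scRNA-Seq UMI counts of both libraries per gene and barcode were deposited by the authors as filtered matrices, and the submitters' processing notes name Cell Ranger 6.1.2 and mm10. Cells with at least 500 genes, at least 500 UMIs, and at most 10% mitochondrial UMIs were kept. Total UMIs were 100808649 in library 1 and 33306452 in library 2. No doublets were removed, and leaving out the 5% of cells with the most UMIs in each class stands as an alternative.

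Libraries were integrated with Seurat 5.3.0 in R 4.3.3 (3000 variable genes, 15 components, resolution 0.8), with the receptors and the genes of the hormone lists (123 in all) kept out of the variable genes. A cluster was named when at least 3 markers of a list passed a log2 fold of 1 and were found in at least 20% of cells, unless another list had more markers among the 10 leading genes, or none of its own markers was among them and the median UMI count was under 1/3 of that of the library. A stromal cluster named for a blood cell type stayed unnamed. UMIs were summed per library and class (at least 10 cells in each library) and tested with edgeR 4.0.16 (TMM, filterByExpr, glmQLFit and glmQLFTest, Benjamini-Hochberg adjustment over all genes, threshold 0.05), with DESeq2 1.42.0 among the alternatives. SE was taken as the log2 fold change over the root of F. Poisson and binomial intervals (95%) and the floor of 3 UMIs per library cover counting error only. Class sums with the same number come from the same library. Their deviations correlated at r = 0.19 to 0.34 among the 3 skeletal classes and 0.074 to 0.117 with skeletal muscle–like cells, and the library was a replicate block in an alternative.

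The receptors, lists, and markers were chosen with earlier results of these data known. Besides the 7 receptors, up to 4 genes with the smallest p were named per list, and the 3 genes most correlated with each receptor (mean of at least 10 CPM). Some genes that this rule names are not reported here. Values by cluster and by Ihh were chosen after the levels were seen. On simulated data (10567 genes, 5 draws), the test among the classes recovered 25.7% of genes changed by a log2 fold of 2 and 0.602% of those changed by 1, with 8.97% false calls. For P-SSC–like against osteoblast-like cells these were 20.7%, 0.602%, and 8.55%. Both shares of false calls were above the share that the threshold allows. Only a small part of the genes was changed, in the P-SSC–like sums alone, whereas 29.9% of genes passed among the classes in the data. The recovered shares may therefore differ from those in the data. No sequences are shown. The study's methods name a 3′ kit and default Cell Ranger settings, under which reads are counted on the strand of the gene.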

Additional observations from a re-analysis of the deposited data

Results flagged for a closer look

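Reporter UMIs lie outside the receptor measurements. EGFP had 2893 UMIs in the Col10a1-led cluster of library 2 (5103 CPM), out of 6833 in all stromal cells of that library, and 0 UMIs in library 1, and both libraries were labelled WT. Its source was not tested, and the levels of the receptors are therefore given in each library.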

How the results depend on the processing

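Of 30 results past the threshold, 22 stayed past it in every planned test, and none changed direction in 365 alternative values, of which 26 missed the threshold. With the library as a replicate block, 2 receptors and 1844 of 10567 genes differed between osteoblast-like and chondrocyte-like cells. Without integration, 2 receptors and 1411 of 10112 genes did. The block brought past the threshold only the receptors named beside their comparisons, and it lost no call. It also brought more of all genes past the threshold in each comparison. At resolution 0.4, 757 of 9628 genes and 1 receptor passed for osteoblast-like cells, and 1558 genes and 1 receptor for chondrocyte-like cells. There, 1342 genes and 3 receptors passed between P-SSC–like and osteoblast-like cells. Between osteoblast-like and chondrocyte-like cells, 984 genes and 0 receptors passed. With at most 5% mitochondrial UMIs, 1149 of 10461 genes and 0 receptors passed between osteoblast-like and chondrocyte-like cells. For chondrocyte-like cells, 1608 genes and 1 receptor passed in that setting. With skeletal muscle–like cells in the mean, 2271 genes passed for osteoblast-like cells, and the Vdr call of P-SSC–like cells was lost (−1.54, adjusted p = 0.993), where muscle held 0 UMIs. Settings added after the data were seen gave 4817 of 10431 genes among clusters in place of classes. They gave 1283 of 9325 genes and 3 receptors for P-SSC–like cells with at least 5 cells a class. With Lepr+ stromal–like cells in the mean at resolution 0.4, 1281 of 9628 genes and 3 receptors passed for P-SSC–like cells. For osteoblast-like cells, 695 genes and 1 receptor passed, and 821 genes and 1 receptor passed between Lepr+ stromal–like and osteoblast-like cells.

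The values that changed sign had not passed the threshold. Insr in P-SSC–like cells was at 0.0051 with RLE size factors, 0.0066 with DESeq2, 0.0728 with the block, 0.1633 without the cells with the most UMIs, and 2.2112 with muscle in the mean. Thra in chondrocyte-like cells was at −0.0214, −0.0204, −0.0598, and −0.0688 with RLE, DESeq2, the block, and muscle, and at −0.2344 with at least 5 cells. Insr (1.4458) and Nr3c1 (0.1352) in chondrocyte-like cells changed sign with muscle, and Esr1 in osteoblast-like cells with at most 5% mitochondrial UMIs (0.1004). With Lepr+ stromal–like cells at resolution 0.4, Vdr (−0.1322), Nr3c1 (0.0383), and Thra (−0.1129) changed sign in chondrocyte-like cells, Nr3c1 in Lepr+ stromal–like cells (−0.2336) and against chondrocyte-like cells (−0.2040), and Thra between P-SSC–like and Lepr+ stromal–like cells (0.0482). The cause was not tested.

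Leaving out a library left the tests across classes with no residual degrees of freedom. Of 20 results past the threshold for a class or pair, 18 had a ratio in each library, all 18 with the same sign in both. Thinned shares lay outside the unthinned intervals in 48 of 56 cases at 1000 UMIs and 49 of 56 at 2000. Thinning can only lower a share among the cells it keeps, so these counts follow from depth and are no check of the results. P-SSC–like cells of library 1 (19 cells) and Lepr+ stromal–like cells of library 2 (9 cells) are few, which limits their levels.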
